A study of Homo sapiens with 54 samples.

Results

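The genes described here are the 10 members of the AP-1 (activator protein 1) transcription factor family that were followed in all peak lists of the series: *FOS*, *FOSB*, *FOSL1* and *FOSL2*, which encode the FOS proteins; *JUN*, *JUNB* and *JUND*, which encode the JUN proteins; and *ATF3*, *BATF* and *BATF3*, which encode related partners. They were taken by name, out of 19974 protein-coding genes with a position on GRCh38, and the window of each gene is its body and 10 kb on each side. Accessible chromatin had been mapped by ATAC-seq, in which a transposase cuts and tags open DNA, in 2 cancer cell lines: MDA-MB-231 from a triple-negative breast tumour and PC3 from a bone metastasis of a prostate tumour. Both lines were sampled untreated (control) and as the cells that lived through cisplatin, a drug whose platinum crosslinks DNA strands, at day 1 and at day 10 after the drug was taken away. The 6 groups are therefore MDA-MB-231 control, day 1 and day 10, and PC3 control, day 1 and day 10, and no group carries a further allele or agent in the labels. Each group had 3 biological replicates, each divided into 3 experimental replicates before tagmentation, for 54 samples in all, and each biological replicate has 1 peak list, so every comparison below is over 3 lists a group.

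AP-1 is a dimer of basic leucine zipper proteins. JUN proteins pair with themselves or with FOS proteins, FOS proteins need a JUN partner to bind DNA, and the ATF and BATF proteins join the same network as partners or competitors. Many of these genes are immediate early genes, which are switched on within minutes of growth factor, cytokine or stress signals through MAP kinases such as ERK, JNK and p38. Cisplatin damage is a known activator of the stress kinases. *FOSL1*, which encodes FRA-1, is known for its activity in mesenchymal and invasive tumour cells, and AP-1 sites are a frequent feature of open chromatin in triple-negative breast lines.

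The 18 lists held from 82392 to 165535 peaks that covered 54.4 to 82.3 Mb, and the median peak width ran from 320 to 592 bp. They hold no read counts, so the sequencing depth is unknown and any difference in depth is part of the differences between lists. To set lists side by side, the covered length of each window was scaled to an equal total covered length. As a check of the labels, *CDKN2A*, which lies in a deletion known in MDA-MB-231, had no covered base in any of the 9 MDA-MB-231 lists and was covered in all 9 PC3 lists. *VIM*, *CD44*, *AXL*, *KRT8*, *KRT18* and *EPCAM* were covered in all 18 lists. So was *ESR1*, the oestrogen receptor gene that triple-negative cells do not express by definition, and *KLK3*, a target of the androgen receptor, was covered in 11 lists. Of the markers of blood, vessel and connective tissue cells *PTPRC* was covered in 9 and *DCN* in 13 lists. The labels call the replicates biological and give no more on their origin, so p-values measure the spread between these lists. Among the MDA-MB-231 control lists, replicate 1 had a median peak width of 365 bp and replicates 2 and 3 had 592 and 587 bp.

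Promoter sequences are shown for 5 members whose gene-start peaks carry the results below: *FOS*, *JUN* and *JUND*, whose starts lay under a peak in every list, and *FOSB* and *BATF*, whose starts did not. Each line gives the 250 bases before the start, 5' to 3' in the direction of the gene, from RefSeq on GRCh38.p14. They lie at chr14:75278578-75278827 (+ strand) for *FOS*, chr19:45467746-45467995 (+ strand) for *FOSB*, chr1:58784048-58784297 (- strand) for *JUN*, chr19:18281623-18281872 (- strand) for *JUND* and chr14:75522219-75522468 (+ strand) for *BATF*. Capitals mark matches on either strand to the motifs named after the sequences.
FOS: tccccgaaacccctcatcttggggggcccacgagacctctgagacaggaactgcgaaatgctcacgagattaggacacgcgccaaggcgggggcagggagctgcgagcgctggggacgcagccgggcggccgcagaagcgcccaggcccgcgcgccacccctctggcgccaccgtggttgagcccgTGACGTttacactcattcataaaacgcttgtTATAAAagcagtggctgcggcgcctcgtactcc
FOSB: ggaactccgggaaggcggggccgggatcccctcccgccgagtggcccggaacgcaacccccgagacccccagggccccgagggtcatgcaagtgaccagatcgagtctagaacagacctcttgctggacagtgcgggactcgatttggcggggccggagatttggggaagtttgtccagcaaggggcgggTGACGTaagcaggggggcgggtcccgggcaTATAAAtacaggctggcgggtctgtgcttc
JUN: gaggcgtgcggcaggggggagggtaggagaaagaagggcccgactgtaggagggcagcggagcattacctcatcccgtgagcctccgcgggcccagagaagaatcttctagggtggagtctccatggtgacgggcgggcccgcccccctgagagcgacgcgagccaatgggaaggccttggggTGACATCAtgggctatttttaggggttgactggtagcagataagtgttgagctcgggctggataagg
JUND: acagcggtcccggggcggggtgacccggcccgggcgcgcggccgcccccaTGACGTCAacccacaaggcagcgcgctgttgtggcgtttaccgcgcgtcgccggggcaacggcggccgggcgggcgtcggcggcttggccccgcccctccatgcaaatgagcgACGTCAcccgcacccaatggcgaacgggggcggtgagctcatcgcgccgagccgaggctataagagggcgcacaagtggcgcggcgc
BATF: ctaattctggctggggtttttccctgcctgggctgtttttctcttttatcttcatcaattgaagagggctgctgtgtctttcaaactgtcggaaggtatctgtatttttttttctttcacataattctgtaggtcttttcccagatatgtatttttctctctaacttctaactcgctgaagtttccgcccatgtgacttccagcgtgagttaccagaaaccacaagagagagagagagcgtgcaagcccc
The motifs searched were the AP-1 site TGACTCA, the cyclic AMP response element TGACGTCA, the variant TGACATCA, the shorter element TGACGT, which also lies within TGACGTCA, and the TATA box TATAAA. Of 35116 RefSeq promoters of this length, TGACTCA was in 4.2%, TGACGTCA in 1.65%, TGACATCA in 2.37%, TGACGT in 7.1% and TATAAA in 10.7%. Among the 9 listed promoters of the members (*ATF3* has 2), TGACTCA was in none. TGACATCA began at -67 from the start of *JUN* and at -123 from the first listed start of *ATF3*. TGACGTCA began at -200 from the start of *JUND*, which has a further short element, printed as ACGTCA, at -87. *FOS* has TGACGT at -64 with TATAAA at -33, and *FOSB* has the same pair at -60 and -30. *FOSL2* has TGACGT at -66 and *JUNB* has TATAAA at -31. The promoter of *BATF* held none of the 5 motifs and was 43.2% G and C with 5 CpG sites, against 74.8% and 40 CpG sites in *JUND*. These matches describe the letters in this window only.

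Of the members, 5 had a peak over the gene start in all 18 lists: *FOS*, *FOSL2*, *JUN*, *JUNB* and *JUND*. The area of a peak, the authors' column of peak strength, was used only as a rank within its own list, and is given as a percentile of that list. In both lines the treated lists hold more peaks than the control lists, so no change is read from these percentiles. The start peak of *FOS* spanned a median of 2829 bp and stood at percentiles from 96.9 to 99.9, that of *JUN* spanned 2762 bp at 97.0 to 99.8, and that of *JUNB* spanned 4530.5 bp at 96.1 to 99.95. The *FOSL2* start peak had its highest point between -85 and -56 in every list, and the *JUND* start peak between -210 and -75. The *JUN* start peak had its highest point between -115 and 13, a stretch that holds the TGACATCA shown above.

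The *FOSB* start was not under a peak in every list, as the plot of gene-start peaks shows. A peak lay over it in all 9 MDA-MB-231 lists, at percentiles from 76.7 to 99.6, and in all 3 PC3 control lists, at 68.6, 70.8 and 72.5. At day 1 in PC3 the start lay under no peak in replicate 1 and under peaks at percentiles 60.6 and 46.3 in replicates 2 and 3, and at day 10 only replicate 2 had one, at 21.6. These values are for the peak over the single start base. The merged region around it, chr19:45467123-45470948, had a peak in all 18 lists and its strongest peak stood at 95.7 to 99.6 in each. It was covered over 2328, 2617 and 2526 bp (unscaled) in PC3 control lists and over 1705, 2326 and 1833 bp at day 10. Whether the values at the start follow from where peaks were divided was not tested. The *BATF* start also differed between lines, with a narrow peak of 398 to 589 bp in 8 of the 9 MDA-MB-231 lists, at percentiles from 5.24 to 44.6, and none in the 9 PC3 lists. Both listed starts of *ATF3* lay under no peak in any list, but other starts of this gene were not examined. Its strongest region, chr1:212606541-212610138, lies between the listed starts and had a peak in all 18 lists. The values at the listed starts therefore do not show that *ATF3* lacks an open start.

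**Figure D1:**
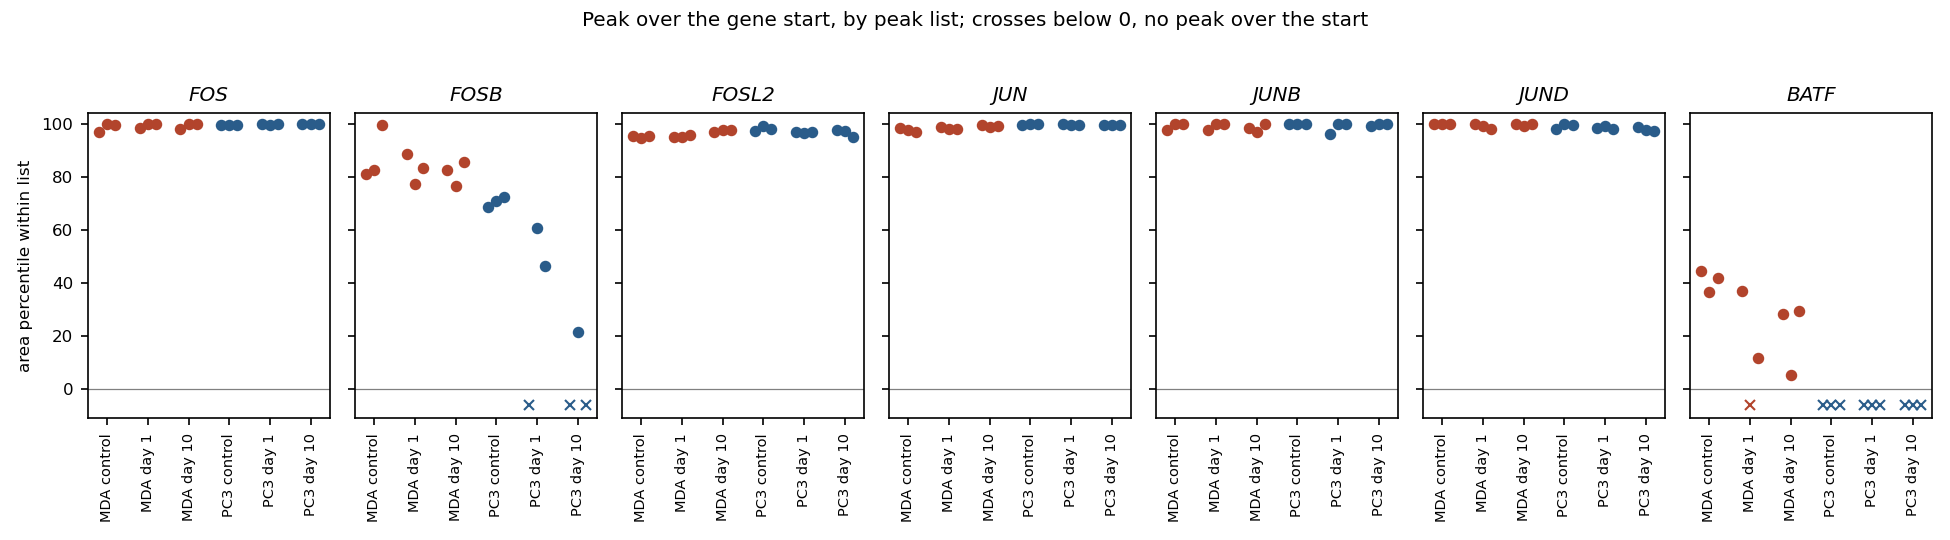
Area percentile, within its own list, of the peak over the gene start (vertical axis, 0 to 100) for 7 members in 6 groups of 3 lists (red, MDA-MB-231, written MDA; blue, PC3); crosses below 0 mark lists with no peak over the start. The points of FOS, FOSL2, JUN, JUNB and JUND all lie at 94.6 or higher, FOSB has no peak over the start in 3 of the 6 treated PC3 lists, and BATF has points in MDA-MB-231 alone.

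Scaled covered length as a share of the window, which takes account of gene length, differed widely between the members. Each share carries the scaling factor of its list, so it is not the plain share of bases under peaks. In MDA-MB-231 control lists these factors were 1.2868, 1.0628 and 0.9862, and their spread is part of the SDs below. The widest *FOSL1* region, 11129 bp wide, had a scaled mean of 12264.5 bp in those lists. In MDA-MB-231 control cells *FOSL1* came first with a scaled 76.5% ± 11.5 (SD, n = 3) of its 28.5 kb window. In order, *JUNB* followed with 60.5% ± 1.62, *JUND* with 32.9% ± 3.92, *FOSL2* with 23.7% ± 0.536 and *FOSB* with 23.0% ± 2.61. Then came *JUN* with 22.2% ± 3.17, *FOS* with 19.4% ± 2.76, *ATF3* with 13.6% ± 0.648, *BATF3* with 10.2% ± 0.963 and *BATF* with 6.97% ± 0.247. The lists of *FOSL2*, *FOSB*, *JUN* and *FOS* overlapped from neighbour to neighbour, and every other step in this order separated all 3 lists. In PC3 control cells *JUNB* came first with 63.9% ± 4.30, followed by *FOSL1* with 46.5% ± 4.83, *JUN* with 23.8% ± 2.59 and *JUND* with 22.5% ± 1.53, which overlapped *JUN*. *ATF3* with 15.4% ± 0.366, *FOSB* with 15.1% ± 0.901 and *FOSL2* with 15.0% ± 1.25 overlapped from neighbour to neighbour. *FOS* followed with 13.0% ± 1.02, each list below every *FOSL2* list, and *BATF* with 9.28% ± 1.26 and *BATF3* with 7.89% ± 0.850 came last and overlapped. The windows of *FOSL1*, *JUNB*, *JUND* and *ATF3* also hold other protein-coding genes (*CCDC85B*, *CTSW* and *FIBP*; *HOOK2*, *PRDX2* and *THSD8*; *IQCN*; and *GARIN4*), whose peaks are counted with them.

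*FOSL1* and *JUNB* both stood near the top of the genome-wide order in both lines. Among the 16816 genes tested, the scaled share of *JUNB* was at percentile 99.82 in MDA-MB-231 control cells and 99.96 in PC3 control cells. That of *FOSL1* was at 99.96 in MDA-MB-231 control cells and at 99.83 in PC3 control cells. The strongest peak in the *FOSL1* window ranked from 1 to 3 by area among all peaks of each MDA-MB-231 list and from 11 to 51 in each PC3 list. The widest peak measured 11095, 11052 and 10921 bp in the 3 MDA-MB-231 control lists and 5724, 5664 and 5730 bp in the 3 PC3 control lists. This domain, merged over lists to chr11:65887427-65898555, covers 6507 bp of the 8497 bp *FOSL1* body. It overlaps or lies within 1 kb of *CCDC85B* and *FIBP*, so its width and rank are not those of *FOSL1* alone. The gene body runs on past the domain to 65900545. No start of *FOSL1* was listed, so a peak over its start was not examined. By contrast the widest peak in the *BATF* window measured at most 1089 bp, and its strongest peak ranked between 6431 and 22989.

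**Figure D2:**
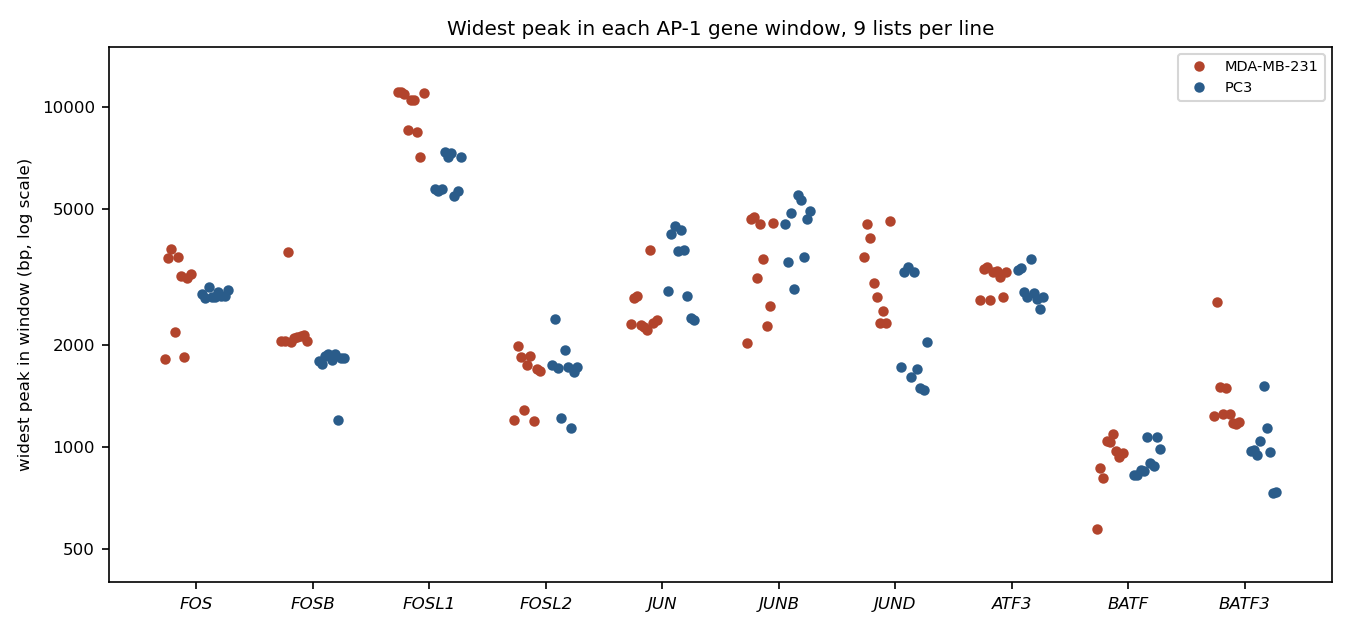
Width of the widest peak in each gene window (vertical axis, bp on a log scale) in the 9 lists of MDA-MB-231 (red) and the 9 lists of PC3 (blue). FOSL1 has the widest peaks, from 5465 to 11095 bp, and BATF peaks are at most 1089 bp wide.

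Covered length in each window was compared between groups with limma on log2(scaled length + 500 bp), with p-values adjusted over all 16816 genes tested and a call at an adjusted p under 0.05. All 10 members passed the filter on low covered length. Fold changes on this scale understate changes of short lengths. The plots of covered length by list and of log2 changes show all members.

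**Figure D3:**
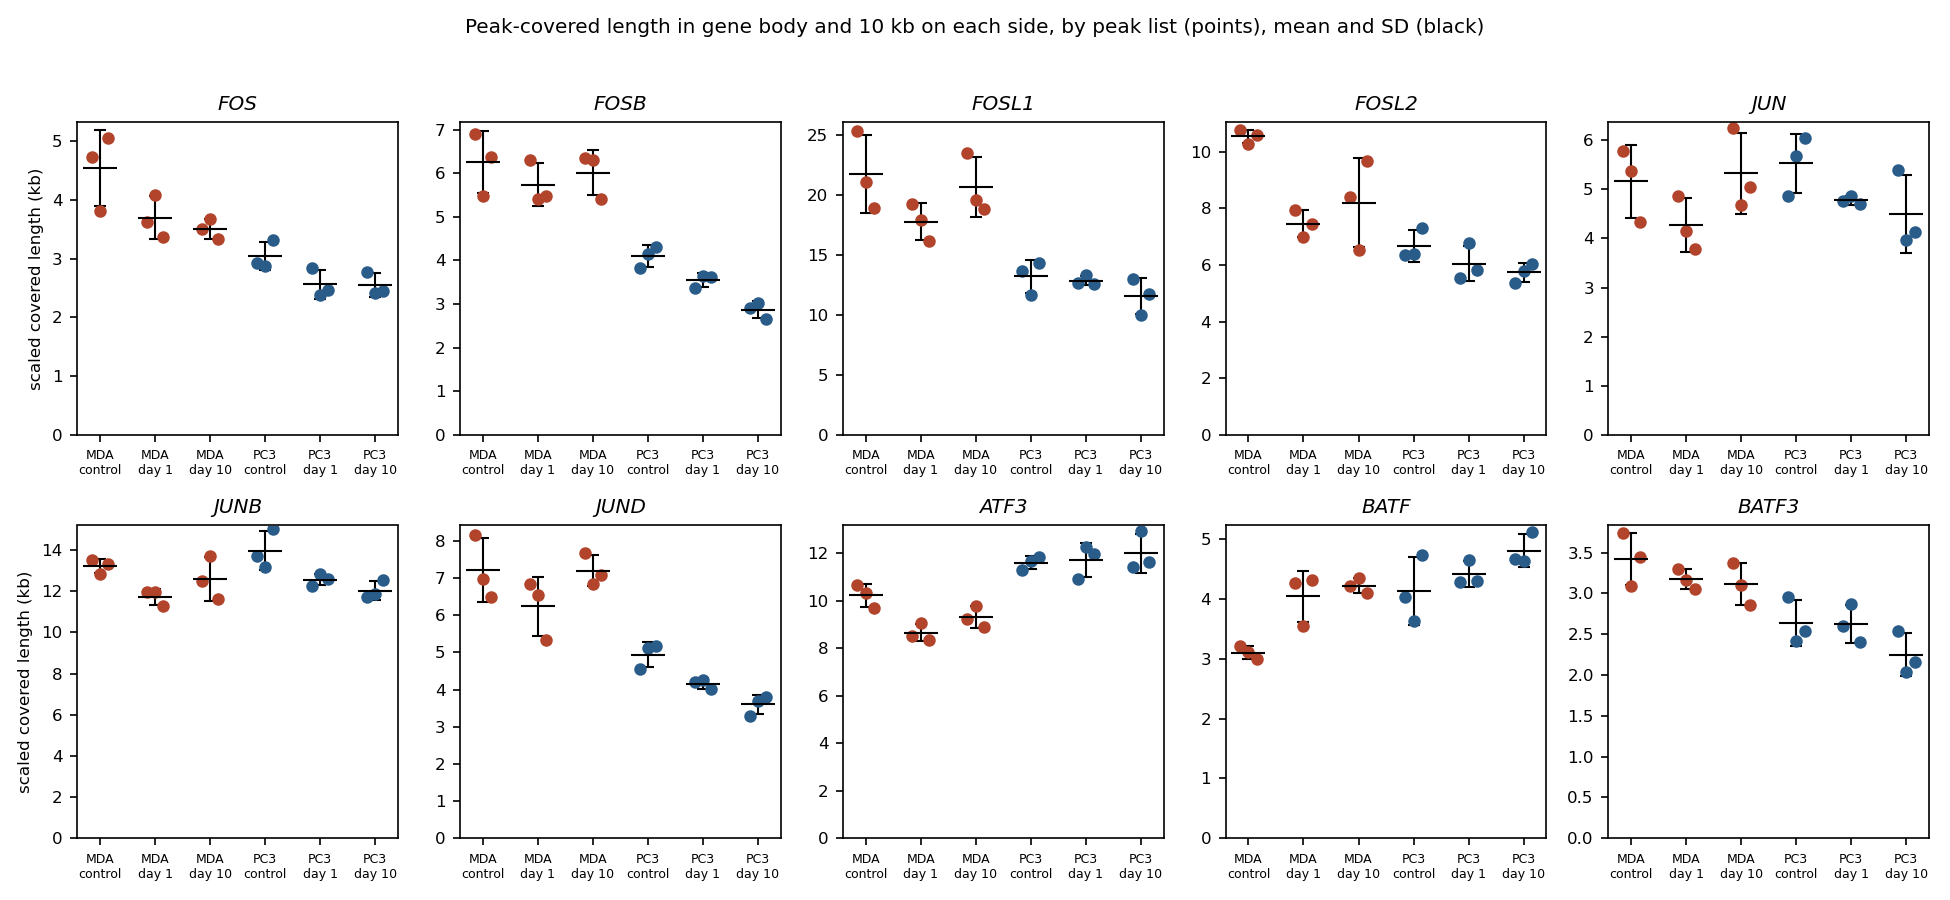
Scaled peak-covered length (vertical axes, kb, each starting at 0) in the windows of the 10 members by peak list (points; red, MDA-MB-231, written MDA; blue, PC3), with the mean and SD of 3 lists in black. FOS, FOSB, FOSL1, FOSL2 and JUND lie higher in MDA-MB-231 control than in PC3 control lists, ATF3 lies lower, and BATF is lowest in the 3 MDA-MB-231 control lists, at 2.99 to 3.21 kb.

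**Figure D4:**
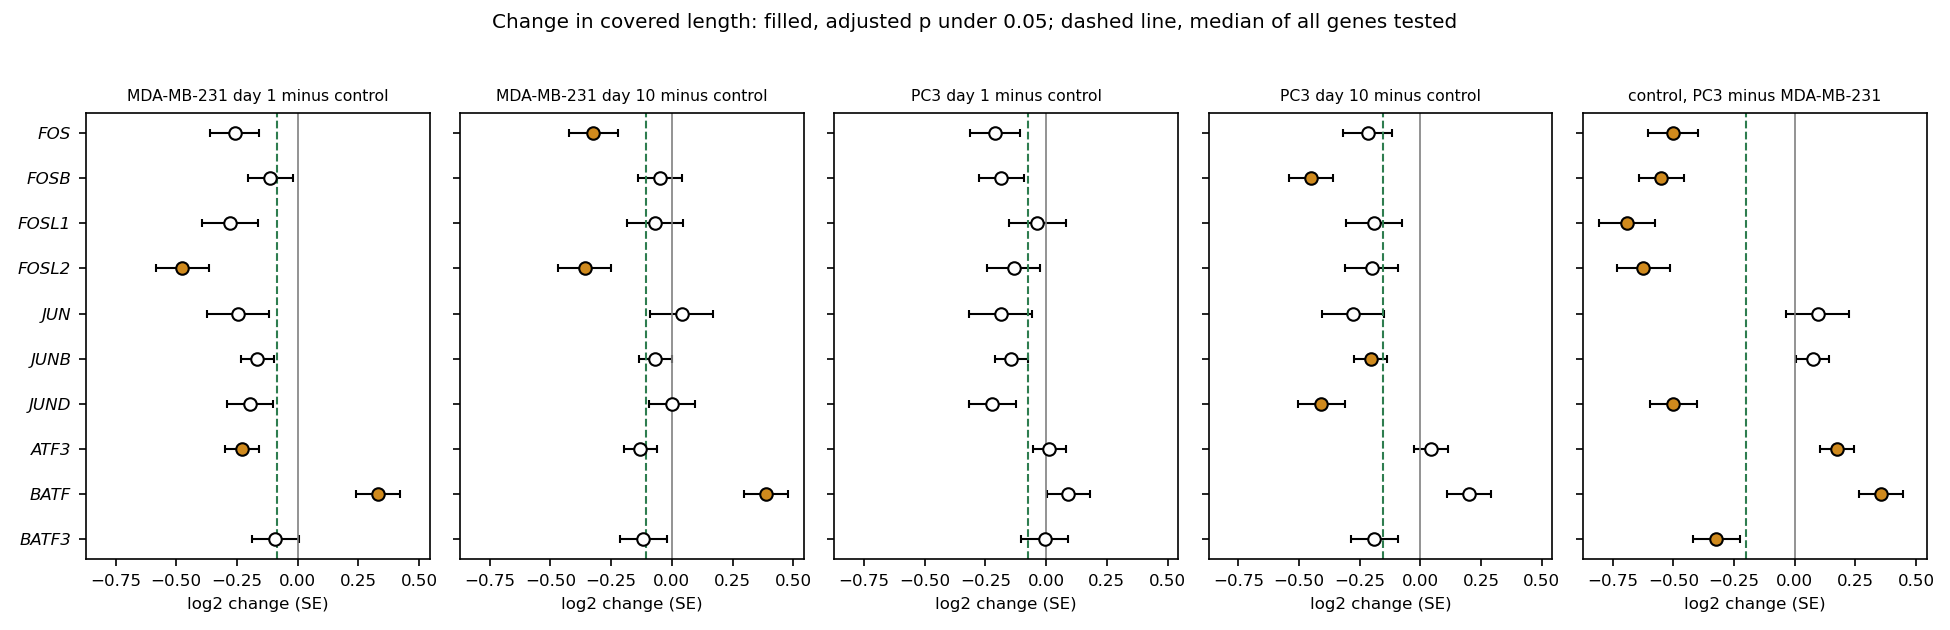
Log2 change in scaled covered length of each member (horizontal axes, with SE) in 4 comparisons of treated with control cells and in PC3 against MDA-MB-231 control cells; filled circles passed an adjusted p of 0.05 in limma, and the dashed line is the median of all genes tested. With this scaling the called rises after treatment are those of BATF in MDA-MB-231 at both times; with median-of-ratios scaling ATF3 and BATF are also called higher in PC3 at day 10.

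In MDA-MB-231 survivors at day 1, *BATF* rose and *FOSL2* and *ATF3* fell, and the other 7 members did not pass. Over all genes tested, 10.9% were called higher and 15.5% lower in that comparison, so 1 and 2 of 10 members are near the background. At day 10 *BATF* rose again, and *FOSL2* and *FOS* fell, where 11.0% of all genes were called higher and 16.7% lower. The median log2 change of the members was -0.21 at day 1 and -0.07 at day 10, beside -0.09 and -0.11 for all genes. No member was called between day 10 and day 1 with limma, where 2.13% of genes were higher and 3.24% lower, and no member had an unadjusted p under 0.05 except *JUN*, whose log2 change was 0.28 ± 0.13 (SE; adjusted p = 0.235).

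In PC3 survivors no member was called with limma at day 1, where 6.02% of genes were called higher and 7.24% lower. *JUNB* and *JUND* had an unadjusted p under 0.05. At day 10, *FOSB*, *JUND* and *JUNB* fell and no member was called higher, beside 11.8% of all genes called higher and 33.1% lower. With median-of-ratios scaling the calls at day 10 were *FOSB* lower and *ATF3* and *BATF* higher. Over the members the median log2 change was -0.14 on day 1 and -0.20 on day 10, beside -0.07 and -0.16 for all genes. Between day 10 and day 1 limma called none, where 2.19% of genes were higher and 5.5% lower, and *FOSB* alone had an unadjusted p under 0.05 (log2 change -0.27 ± 0.09, adjusted p = 0.0825). The 2 treated groups of a line share their control lists, so the changes at the 2 times are not independent of each other.

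Between the untreated lines the members differed more. In control cells *FOS*, *FOSB*, *FOSL1*, *FOSL2*, *JUND* and *BATF3* were lower in PC3 than in MDA-MB-231, *ATF3* and *BATF* were higher, and *JUN* and *JUNB* did not pass. Of all genes tested, 44.3% were called lower and 21.0% higher in PC3, and the median log2 difference was -0.41 over the members and -0.20 over all genes. At day 1 the same 6 members were lower and *ATF3* was higher, beside 42.5% and 20.4% of all genes, and at day 10 again these 6 were lower and *ATF3* higher, beside 48.8% and 19.2%. Summed over the 10 windows, covered length was 85.5 ± 6.38 kb in MDA-MB-231 control, 72.8 ± 4.15 kb at day 1 and 80.2 ± 4.25 kb at day 10, and 69.9 ± 4.19, 65.3 ± 2.3 and 61.9 ± 1.39 kb in the PC3 groups. Scaling bears on all of these values. Median-of-ratios scaling moved the median of all genes by 0.20 in the control comparison of the lines and by 0.16 in PC3 at day 10. It ended 14 of the 33 called changes of single members and added 9. With it, 2231 genes were higher and 954 lower in day 1 MDA-MB-231 survivors (1825 and 2609 as designed) and 2171 and 963 in day 10 survivors (1849 and 2814). The PC3 counts became 1473 and 403 on day 1 (1013 and 1218) and 3423 and 2518 on day 10 (1981 and 5566). Between control cells it gave 5093 and 4929 (3527 and 7443 as designed). Of the members lower in PC3, *BATF3* lost its call in control cells with it, *FOSL1*, *FOSL2* and *BATF3* at day 1 (-0.23, -0.07 and -0.04), and *FOS*, *FOSL2* and *BATF3* at day 10 (-0.12, -0.17 and -0.13). It added *JUN* and *JUNB* as higher in PC3 control cells, *JUN*, *JUNB* and *BATF* at day 1 (0.36, 0.32 and 0.32), and *JUNB* and *BATF* at day 10 (0.25 and 0.46). The calls between lines that held in all 7 alternatives were *FOSL1* and *FOSL2* in control cells, *FOSB* and *ATF3* at day 1, and *FOSB*, *FOSL1*, *JUND* and *ATF3* at day 10.

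Among the FOS genes, *FOS* itself encodes the classic partner of JUN and is the model immediate early gene. Its window (gene at chr14:75278828-75282230) had 4.74, 3.82 and 5.06 kb covered in the MDA-MB-231 control lists, 3.63, 4.09 and 3.37 kb at day 1 and 3.51, 3.67 and 3.33 kb at day 10. Its PC3 lists had 2.94, 2.88 and 3.32 kb in control lists, 2.85, 2.38 and 2.47 kb at day 1 and 2.78, 2.41 and 2.46 kb at day 10. The day 10 lists of MDA-MB-231 lay below all its control lists, and every PC3 list lay below every MDA-MB-231 list. The fall in MDA-MB-231 at day 10 was -0.32 ± 0.10 (log2, SE; limma adjusted p = 0.0252), and control PC3 cells were lower than control MDA-MB-231 cells by a log2 difference of -0.50 ± 0.10 (adjusted p = 3.46e-04). The region at the start, chr14:75276483-75280315, had a peak in all 18 lists, over 3774 ± 38.8 bp (scaled, SD) in MDA-MB-231 control lists and 3451 ± 258 bp at day 10. A region inside the gene, chr14:75280900-75281758, had a peak in MDA-MB-231 control replicates 1 and 3 only. The day 10 fall was not called with median-of-ratios scaling (-0.21), with no scaling (-0.33) or in a window of 2 kb (-0.27), had the opposite sign among the 50000 highest-area peaks (0.10) and at a stricter peak threshold of 5 in -log10 p (0.18), and lost its call without MDA-MB-231 control replicate 1 or 3 or day 10 replicate 1 or 3 (-0.43 to -0.25 over all single lists left out). The line difference in control cells was not called among the 50000 highest-area peaks (-0.08) or at the stricter threshold (-0.14).

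*FOSB*, a second immediate early FOS gene, lies at chr19:45467996-45475179. The lists of PC3 held 3.83, 4.15 and 4.31 kb covered in control lists, 3.36, 3.65 and 3.62 kb at day 1 and 2.91, 3.03 and 2.65 kb at day 10. The 3 groups of PC3 lists did not overlap. In MDA-MB-231 the lists had 6.89, 5.49 and 6.37 kb in control cells, 6.30, 5.42 and 5.48 kb at day 1 and 6.34, 6.29 and 5.41 kb at day 10, and these groups overlapped. The PC3 fall at day 10 was -0.45 ± 0.09 (limma adjusted p = 0.00105), against -0.05 ± 0.09 in MDA-MB-231 (adjusted p = 0.722). The test of the difference between these changes gave -0.40 ± 0.13 (adjusted p = 0.0434), where 10.6% of all genes were lower and 5.82% higher. Within the window, the start region chr19:45467123-45470948 was covered over 2328, 2617 and 2526 bp (unscaled) in PC3 control lists and over 1705, 2326 and 1833 bp at day 10. The control difference between lines was -0.55 ± 0.09 (adjusted p = 5.13e-05), and was not called among the 50000 highest-area peaks (-0.17) or at the stricter threshold (-0.23). The PC3 fall was called with median-of-ratios scaling (-0.28, limma adjusted p = 0.0206) and at the stricter threshold (-0.69, adjusted p = 0.0181). It was not called with no scaling (-0.23) or among the 50000 highest-area peaks (-0.23). The difference between lines was not called with either scaling or peak alternative (-0.67 to -0.17) and lost its call in 10 of 18 fits with 1 list left out.

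*FOSL1* (chr11:65892049-65900545) had 25.3, 21.1 and 18.9 kb covered in MDA-MB-231 control lists, 19.3, 17.9 and 16.2 kb at day 1 and 23.5, 19.6 and 18.9 kb at day 10. In the PC3 lists there were 13.7, 11.7 and 14.4 kb in control lists, 12.7, 13.3 and 12.6 kb at day 1 and 13.0, 9.99 and 11.7 kb at day 10. Every MDA-MB-231 list lay above every PC3 list. The log2 difference in control cells was -0.69 ± 0.12 (limma adjusted p = 5.12e-05), and it was called under each of the 7 alternatives run for it and with each single list left out (-0.79 to -0.58). At higher coordinates than the gene, 2 regions differed: chr11:65906419-65908423 was covered over 1296, 1686 and 1833 bp in MDA-MB-231 control lists and in no PC3 control list, and chr11:65909076-65910531 over 1226, 1451 and 1448 bp against none. The second of these regions was present in all 3 PC3 day 1 lists, over 296, 1134 and 878 bp, and in 1 of 3 at day 10. The change in MDA-MB-231 at day 1 was -0.28 ± 0.12 and was not called (adjusted p = 0.0844), but was called with the replicate number as a block (adjusted p = 0.016) and without MDA-MB-231 control replicate 3.

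*FOSL2*, which encodes FRA-2, fell in MDA-MB-231 cells at both times. Its window (gene at chr2:28392858-28417317) had 10.8, 10.3 and 10.6 kb covered in MDA-MB-231 control lists, 7.95, 6.98 and 7.43 kb at day 1 and 8.38, 6.54 and 9.68 kb at day 10. All treated lists lay below all control lists. In PC3 the lists had 6.34, 6.37 and 7.32 kb in control cells, 5.55, 6.76 and 5.83 kb at day 1 and 5.38, 5.80 and 6.04 kb at day 10. The MDA-MB-231 falls were -0.47 ± 0.11 at day 1 (limma adjusted p = 0.00496) and -0.36 ± 0.11 at day 10 (adjusted p = 0.0213). The difference between these falls and the PC3 changes was not called at day 1 (0.34 ± 0.15, adjusted p = 0.231) or at day 10 (0.16 ± 0.15, adjusted p = 0.511). With median-of-ratios scaling the day 1 fall was called (-0.36, adjusted p = 0.0295) and the day 10 fall was not (-0.24), and with no scaling or among stronger peaks neither was called (-0.37 to -0.02). The day 10 call was also lost without MDA-MB-231 control replicate 1 or 3 or day 10 replicate 2.

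Among the 14 regions in the *FOSL2* window, 6 had peaks in MDA-MB-231 lists only. Inside the gene, 2 regions were open in all 3 MDA-MB-231 control lists and in none at day 1: chr2:28395026-28396141, covered over 564, 822 and 1022 bp in control lists, and chr2:28396466-28397060, covered over 531, 585 and 592 bp. At day 10 only replicate 3 had them, over 910 and 519 bp, and the first was present in all 9 PC3 lists. A region beyond the gene end, chr2:28423782-28424483, had no peak in any control list of either line, a peak in all 6 treated MDA-MB-231 lists, in 2 of 3 PC3 lists at day 1 and in all 3 at day 10, at area percentiles from 8.78 to 55.2. The regions chr2:28406457-28407462 and chr2:28408076-28409839 were covered in all 9 MDA-MB-231 lists, the latter at percentiles from 92.0 to 96.5, and in none of the 9 PC3 lists.

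The JUN genes supply the partner that every FOS dimer needs. *JUN* (chr1:58780791-58784047) had 5.77, 5.38 and 4.34 kb covered in MDA-MB-231 control lists, 4.87, 4.15 and 3.79 kb at day 1 and 6.24, 4.68 and 5.04 kb at day 10. PC3 cells had 4.87, 5.68 and 6.04 kb in control lists, 4.77, 4.87 and 4.69 kb at day 1 and 5.40, 3.97 and 4.12 kb at day 10. The groups overlapped in every comparison and no change was called. The control difference between lines was 0.09 ± 0.13 (log2; limma adjusted p = 0.536), but it was called as higher in PC3 with median-of-ratios scaling (0.32), among the 50000 highest-area peaks (0.71) and at the stricter threshold (0.67). In the window of 2 kb the MDA-MB-231 change at day 1 was called (-0.42, adjusted p = 0.0277) and so was the PC3 change at day 10 (-0.34, adjusted p = 0.0393). The start region chr1:58781623-58786137 was covered over 3752, 4151 and 3898 bp (unscaled) in MDA-MB-231 control lists and over 3404, 2249 and 2209 bp at day 1. A short region inside the gene, chr1:58780941-58781257, had a peak in all 3 MDA-MB-231 day 1 lists and in no control list, at percentiles from 6.86 to 15.4.

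*JUNB* encodes a JUN protein that can restrain JUN, and lies at chr19:12791486-12793315. It had 13.5, 12.8 and 13.3 kb covered in MDA-MB-231 control lists, 12.0, 11.9 and 11.3 kb at day 1 and 12.5, 13.7 and 11.6 kb at day 10. The PC3 lists had 13.7, 13.2 and 15.0 kb in control lists, 12.3, 12.8 and 12.6 kb at day 1 and 11.7, 11.8 and 12.5 kb at day 10. All treated PC3 lists lay below all PC3 control lists, and all 5 regions of the window had a peak in all 18 lists. The PC3 fall at day 10 was -0.21 ± 0.07 (limma adjusted p = 0.0212), beside a median of -0.16 over all genes. With median-of-ratios scaling it was -0.02 and with no scaling 0.04, neither called, and it lost its call without PC3 control replicate 3 or day 10 replicate 1 or 2. Relative to the median of all genes, *JUNB* stood 0.28 higher in PC3 than in MDA-MB-231 control cells, and the difference was called with median-of-ratios scaling (0.31) but not in the comparison as designed (0.07, adjusted p = 0.349).

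*JUND*, the JUN gene expressed most constantly across cell states, lies at chr19:18279694-18281622. It had 8.17, 6.98 and 6.50 kb covered in MDA-MB-231 control lists, 6.85, 6.54 and 5.34 kb at day 1 and 7.66, 6.84 and 7.08 kb at day 10. Its PC3 lists had 4.55, 5.11 and 5.16 kb in control lists, 4.21, 4.26 and 4.00 kb at day 1 and 3.30, 3.70 and 3.79 kb at day 10. The 3 PC3 groups did not overlap, and every PC3 list lay below every MDA-MB-231 list. The PC3 fall at day 10 was -0.41 ± 0.10 (limma adjusted p = 0.00294), against 0.00 ± 0.10 in MDA-MB-231 (adjusted p = 1.0), and the difference of these changes was -0.41 ± 0.14 (adjusted p = 0.0495). The control difference between lines was -0.50 ± 0.10 (adjusted p = 2.17e-04), and was not called among the 50000 highest-area peaks (-0.22) or at the stricter threshold (-0.28). Its start region, chr19:18277441-18283152, was covered over 5227 ± 610 bp (scaled, SD) in MDA-MB-231 control lists and 3451 ± 352 bp in PC3 control lists. The PC3 fall was not called with median-of-ratios scaling (-0.23, adjusted p = 0.0589), with no scaling (-0.18) or among stronger peaks (-0.31 and -0.30), and the difference of changes lost its call in 14 of 18 fits with 1 list left out and in 6 of 7 alternatives.

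*ATF3*, a stress-induced gene whose protein often represses as a homodimer, differed from the FOS genes in direction between lines. Its window (gene at chr1:212565407-212620777) had 10.7, 10.3 and 9.71 kb covered in MDA-MB-231 control lists, 8.53, 9.07 and 8.36 kb at day 1 and 9.24, 9.79 and 8.89 kb at day 10. The lists of PC3 held 11.3, 11.7 and 11.8 kb in control lists, 10.9, 12.3 and 12.0 kb at day 1 and 11.4, 12.9 and 11.6 kb at day 10. Every PC3 list lay above every MDA-MB-231 list, and the MDA-MB-231 day 1 lists lay below their controls. PC3 was higher by 0.17 ± 0.07 in control cells (limma adjusted p = 0.034), by 0.42 ± 0.07 at day 1 (adjusted p = 5.16e-05) and by 0.35 ± 0.07 at day 10 (adjusted p = 2.57e-04). The MDA-MB-231 fall at day 1 was -0.23 ± 0.07 (adjusted p = 0.0219). That fall was not called with median-of-ratios scaling (-0.12), with no scaling (-0.08) or among stronger peaks (-0.14 and -0.06), and lost its call without MDA-MB-231 control replicate 1 or 2 or day 1 replicate 1 or 3. The PC3 change at day 10 was 0.04 ± 0.07 (adjusted p = 0.628) and was called higher with median-of-ratios scaling (0.23, adjusted p = 0.00842). The control difference lost its call at the stricter threshold, with no scaling and without replicate 2 or 3 of either control group.

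Of the 15 regions in the *ATF3* window, 8 had a peak in all 18 lists and 4 in PC3 lists only. The strongest, chr1:212606541-212610138, lies inside the gene about 6.7 kb before the second listed start and stood at percentiles from 99.5 to 99.9 in every list. Inside the gene, 2 regions separated the lines: chr1:212583270-212584131 was covered over 625, 680 and 628 bp and chr1:212600124-212601990 over 1442, 1152 and 1415 bp in PC3 control lists, and neither had a peak in an MDA-MB-231 control list. In PC3 the first was covered over 692 ± 34.6 bp (scaled, SD) in control lists, 739 ± 9.2 bp at day 1 and 715 ± 3.5 bp at day 10, and the second over 1438 ± 199, 1521 ± 76.5 and 1389 ± 205 bp. A further 2 regions had no peak in any PC3 control list and a peak in all 6 treated PC3 lists: chr1:212593795-212594279, at percentiles from 13.6 to 51.1, and chr1:212621623-212623534, at 0.18 to 75.6. Another, chr1:212565759-212566188, was gained at day 10.

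*BATF* encodes a small partner without a transactivation domain, best known in lymphocytes, and rose after treatment in MDA-MB-231 at both times. Its window (gene at chr14:75522469-75546992) had 3.21, 3.11 and 2.99 kb covered in MDA-MB-231 control lists, 4.26, 3.54 and 4.32 kb at day 1 and 4.22, 4.34 and 4.09 kb at day 10. In the PC3 lists there were 4.03, 3.62 and 4.74 kb in control lists, 4.29, 4.66 and 4.30 kb at day 1 and 4.66, 4.63 and 5.12 kb at day 10. All other lists lay above the 3 MDA-MB-231 control lists. Its rise in MDA-MB-231 was 0.33 ± 0.09 at day 1 (limma adjusted p = 0.0138) and 0.39 ± 0.09 at day 10 (adjusted p = 0.00437), and PC3 control cells were higher than MDA-MB-231 control cells by 0.36 ± 0.09 (adjusted p = 0.00229). Both rises were called with either scaling alternative (0.37 to 0.49) and were larger among the 50000 highest-area peaks (1.45 and 1.24) and at the stricter threshold (1.38 and 1.22). In the MDA-MB-231 control lists chr14:75535685-75536726 stood at percentiles 76.7, 79.8 and 78.0, and every other region of the window at 44.6 or lower. Among the highest-area peaks the control lengths are therefore short, and the larger changes there rest on them. They were not called in the window of 2 kb (0.16 and 0.22), where the control difference between lines was -0.21, and the day 1 rise lost its call without day 1 replicate 1 or 3. The PC3 change at day 10, 0.20 ± 0.09 (adjusted p = 0.0779), was not called as designed but was called in 5 alternatives (0.38 to 0.90). The difference between the lines' changes was not called at day 1 (-0.24 ± 0.13, adjusted p = 0.327), though it was among the 50000 highest-area peaks (-1.01, adjusted p = 0.00826), or at day 10 (-0.19 ± 0.13, adjusted p = 0.334).

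The map of regions shows the *BATF* window by covered length. Before the gene, 3 regions, chr14:75518660-75519084, chr14:75519780-75520699 and chr14:75520877-75521962, had no peak in an MDA-MB-231 control list and a peak in all 9 PC3 lists. At day 1 all 3 had a peak in MDA-MB-231 replicates 1 and 3 and none in replicate 2, and at day 10 the first was present in all 3 lists, the second in 2 and the third in 1. The region chr14:75542215-75543398, inside the gene near its end and named after its values were seen, was covered over 404, 847 and 614 bp (unscaled) in MDA-MB-231 control lists, over 1045, 1035 and 1089 bp at day 1 and over 972, 935 and 960 bp at day 10, and had a peak in 1 of 9 PC3 lists. Each treated MDA-MB-231 list lay above the 3 control lists there, also after scaling. The region chr14:75554109-75555031, beyond the gene end, was covered over 293, 0 and 323 bp in MDA-MB-231 control lists, 378, 570 and 578 bp at day 1 and 347, 370 and 372 bp at day 10. After scaling the MDA-MB-231 groups had 232 ± 203 bp (SD) in control lists, 502 ± 96.4 bp at day 1 and 405 ± 34.9 bp at day 10, and the PC3 groups had 805 ± 67.2, 642 ± 40.6 and 626 ± 68.0 bp. In PC3 the unscaled lengths overlapped between control lists (703 to 777 bp) and treated lists (667 to 800 bp). The region chr14:75543695-75544146 had a peak in all 6 treated PC3 lists and in no other list, at percentiles from 1.25 to 48.0.

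**Figure D5:**
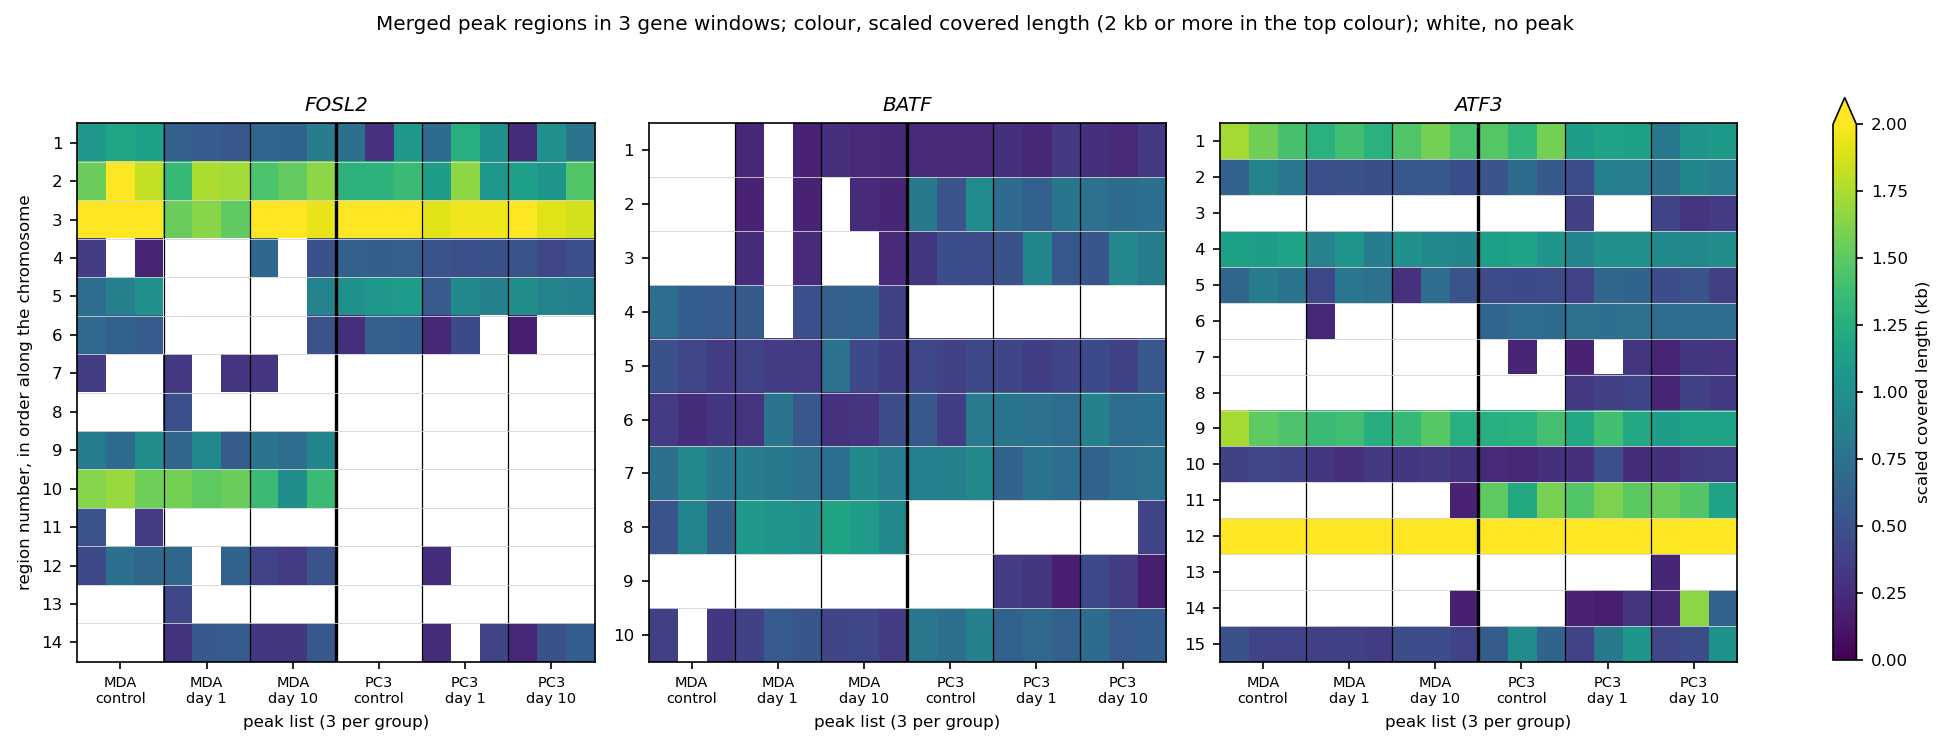
Merged peak regions, numbered in order along the chromosome (vertical axes), in the windows of FOSL2, BATF and ATF3 in 18 peak lists (horizontal axes, 3 per group; MDA is MDA-MB-231); colour is the scaled covered length in kb, with 2 kb or more in the top colour, and white is no peak. FOSL2 regions 9 and 10 are coloured in all 9 MDA-MB-231 lists and white in all 9 PC3 lists, ATF3 regions 6 and 11 are coloured in all 9 PC3 lists and in 1 MDA-MB-231 list each, and BATF region 8 is covered over 675 bp on average in MDA-MB-231 control lists and over 1047 and 1068 bp at day 1 and day 10.

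*BATF3*, known for its part in dendritic cell development, lies at chr1:212686417-212699840. It had 3.73, 3.09 and 3.44 kb covered in MDA-MB-231 control lists, 3.30, 3.16 and 3.06 kb at day 1 and 3.37, 3.10 and 2.86 kb at day 10. PC3 cells had 2.96, 2.41 and 2.54 kb in control lists, 2.60, 2.87 and 2.40 kb at day 1 and 2.54, 2.04 and 2.16 kb at day 10. The control lists of the lines did not overlap, and no change after treatment was called in either line. The control difference was -0.32 ± 0.10 (limma adjusted p = 0.00759), and it was not called with median-of-ratios scaling (-0.11). Its strongest region, chr1:212698657-212701768, which reaches over 1 end of the gene, had a peak in all 18 lists, over 2962 ± 184 bp (scaled, SD) in MDA-MB-231 control lists and 2037 ± 183 bp in PC3 control lists.

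Over all 77 merged regions in the 10 windows, 33 had a peak in all 18 lists, 16 in MDA-MB-231 lists only and 6 in PC3 lists only. Counting a region as gained when all 3 treated and no control lists had it, and as lost in the reverse case, 2 were gained and 2 lost in MDA-MB-231 at day 1, beside 5.06% and 0.436% of the 232138 regions of the series. At day 10, 2 were gained and 0 lost, beside 6.5% and 0.582%. In PC3, 4 were gained and 0 lost at day 1, beside 3.51% and 0.331%, and 5 were gained and 0 lost at day 10, beside 8.58% and 1.07%. Between control groups, 5 regions were found in PC3 lists only and 7 in MDA-MB-231 lists only, beside 13.2% and 6.38%. By scaled covered length, 4 regions lay higher in all 3 treated than in all 3 control lists of MDA-MB-231 at day 1 and 23 lay lower, beside 7.72% and 10.8% of all regions, and 3 and 9 at day 10, beside 9.24% and 9.29%. The PC3 numbers were 7 and 17 on day 1, beside 5.83% and 16.9%, and 9 and 21 on day 10, beside 11.3% and 20.9%. With 3 lists against 3, an exact test of 1 region cannot go below p = 0.1, so these are counts. A region could lie lower only where all 3 control lists had a peak. In the windows 33 of 77 regions had a peak in all 18 lists, and this share was not counted over all regions. The counts of lower regions and the shares beside them are therefore not over like regions. The PC3 gains were weak peaks: none was counted among the 50000 highest-area peaks at either time, and 1 at each time at the stricter threshold. Likewise neither loss in MDA-MB-231 was counted with those peaks.

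The *FOSB* and *JUND* differences given above were the 2 members called when the changes of the lines were compared at day 10. At day 1 limma called none of the 10 in that comparison, where 1.86% of genes were higher and 3.44% lower, and *ATF3* and *FOSL2* had an unadjusted p under 0.05. Groups of 3 lists did not overlap for 4 members between day 1 and control in MDA-MB-231, 3 between day 10 and control, and 4 and 5 in the same PC3 comparisons, beside 45.6%, 46.6%, 37.6% and 51.2% of all genes.

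Other parts of the pathway were followed as 5 lists of genes. Of 18 other immediate early genes tested, 0 were called higher and 3 lower in day 1 MDA-MB-231 survivors, against 1 and 4 among day 10 survivors. The counts for PC3 were 0 and 1 on day 1, then 0 and 4 on day 10. Median-of-ratios scaling gave 0 and 1, then 1 and 2 in MDA-MB-231, and 1 and 0, then 1 and 2 in PC3. The counts of all 5 lists stand beside shares of all genes called higher and lower of 10.9% and 15.5% (MDA-MB-231 day 1), 11.0% and 16.7% (MDA-MB-231 day 10), 6.02% and 7.24% (PC3 day 1) and 11.8% and 33.1% (PC3 day 10). *CCN2*, a matricellular gene, fell in MDA-MB-231 from 5.15 ± 1.07 kb to 2.61 ± 0.578 kb at day 1 (log2 change -0.86 ± 0.14, limma adjusted p = 3.54e-04) and to 2.53 ± 0.200 kb at day 10. Of these 18 genes, 14 were lower and 1 higher in PC3 than in MDA-MB-231 control cells, beside 44.3% and 21.0% of all genes, with a median log2 difference of -0.60 beside -0.20 for all genes. With median-of-ratios scaling 12 were lower and 2 higher, with a median of -0.37. *EGR1*, an immediate early zinc finger gene, had 8.40 ± 0.576 kb in MDA-MB-231 and 2.76 ± 0.0456 kb in PC3 control cells (log2 difference -1.45 ± 0.08, adjusted p = 8.93e-11), and *IER5* had 6.18 ± 0.394 and 1.90 ± 0.133 kb. After treatment the list's median log2 change was -0.18 (MDA-MB-231 day 1), -0.10 (MDA-MB-231 day 10), -0.02 (PC3 day 1) and -0.15 (PC3 day 10), beside -0.09, -0.11, -0.07 and -0.16 for all genes.

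Of 25 partner genes with a leucine zipper, 1 was higher and 6 lower in day 1 MDA-MB-231 survivors, against 3 and 5 among day 10 survivors. The counts for PC3 were 1 and 4 on day 1, then 5 and 9 on day 10. Median-of-ratios scaling gave 2 and 3, then 4 and 2 in MDA-MB-231, and 2 and 2, then 7 and 3 in PC3. *MAF* rose in PC3 at day 10 to 1.43 ± 0.279 kb, where the control lists had no covered base, and in MDA-MB-231 at day 10 by 0.53 ± 0.11 (limma adjusted p = 0.00138). *JDP2*, an AP-1 repressor gene that lies on chromosome 14 as *FOS* and *BATF* do, rose in PC3 at day 1 by 0.40 ± 0.09 (adjusted p = 0.0106). *BACH2*, a repressor that pairs with MAF proteins, rose in MDA-MB-231 at day 1 by 0.47 ± 0.08 (adjusted p = 5.46e-04). The medians of the partner genes, in the same order, were -0.14, -0.15, -0.06 and -0.18.

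Of 26 kinases and factors upstream of AP-1, 4 were higher and 6 lower in day 1 MDA-MB-231 survivors, against 1 and 5 among day 10 survivors. The counts for PC3 were 0 and 2 on day 1, then 1 and 11 on day 10, where 33.1% of all genes were lower and median-of-ratios scaling gave 2 and 6. In MDA-MB-231 that scaling gave 5 and 3 on day 1, then 2 and 1 on day 10. *RPS6KA3*, which encodes the ERK-activated kinase RSK2, fell in MDA-MB-231 at day 1 by 0.70 on the log2 scale (SE 0.10, limma adjusted p = 1.10e-04) and in PC3 at day 10 to 2.66 ± 0.400 kb (log2 change -0.90 ± 0.10, adjusted p = 7.88e-06). *MAP2K4*, which encodes a kinase that activates JNK, fell in PC3 at day 1 (-0.62 ± 0.15, adjusted p = 0.0142) and at day 10 (-0.95 ± 0.15, adjusted p = 1.30e-04). Of 13 feedback phosphatases and inhibitors, 0 were higher and 5 lower in day 1 MDA-MB-231 survivors, against 0 and 1 among day 10 survivors. PC3 had 0 and 2 on day 1, then 1 and 5 on day 10. Median-of-ratios scaling gave 0 and 2, then 0 and 0 in MDA-MB-231, and 1 and 0, then 3 and 2 in PC3. *SPRY2*, an inhibitor of receptor signalling, fell in MDA-MB-231 at day 1 to 2.62 ± 0.407 kb (-0.78 ± 0.13, adjusted p = 5.47e-04). *FBXW7* and *COP1*, which encode parts of ubiquitin ligases that act on JUN, fell in PC3 at day 10, with log2 changes of -0.72 ± 0.11 (adjusted p = 1.22e-04) and -0.79 ± 0.15 (adjusted p = 5.06e-04).

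Of 26 genes commonly given as AP-1 targets, 2 were higher and 1 lower in day 1 MDA-MB-231 survivors, against 4 and 4 among day 10 survivors. PC3 had 1 and 2 on day 1, then 2 and 5 on day 10. Median-of-ratios scaling gave 2 and 1, then 4 and 2 in MDA-MB-231, and 2 and 1, then 7 and 2 in PC3. Its median log2 change of the targets in PC3 at day 10 was 0.12, beside 0.0024 for all genes. The direction of the targets in PC3 at day 10 therefore depends on the scaling. The largest rises in MDA-MB-231 were of matrix metalloproteinase genes and a cytokine gene. *MMP10* rose in MDA-MB-231 at day 1 to 1.24 ± 0.0250 kb (log2 change 1.40 ± 0.13, limma adjusted p = 1.33e-06) and at day 10 to 1.68 ± 0.158 kb, from 0.175 ± 0.157 kb in control cells. *MMP3* and *IL1B* rose at day 10 to 1.40 ± 0.185 kb and 1.98 ± 0.511 kb. *CCND1*, which encodes cyclin D1, fell at day 1 (-0.47 ± 0.11, adjusted p = 0.0066). In PC3 *ITGA2* fell at day 10 (-0.62 ± 0.09, adjusted p = 7.60e-05) and *HBEGF* rose at day 1 (0.27 ± 0.08, adjusted p = 0.0404).

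The medians of these last 3 lists in the same order were -0.10, -0.08, -0.14 and -0.22 for the kinases, -0.23, -0.07, -0.10 and -0.12 for the feedback genes and -0.08, -0.05, -0.11 and -0.05 for the targets.

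The genes whose covered length over the 18 lists was most like the sum of the members, among those over 1 Mb from any member, were *TMEM186* (Pearson r = 0.978), *ALG2* (r = 0.965) and *ALYREF* (r = 0.964). These correlations are a description over 18 lists in 2 lines, and the lists share their line, their depth and their scaling.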

How the data were processed

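ATAC-seq peaks had been called from 54 samples, and 18 deposited lists, 1 for each biological replicate, were used. The sources used here do not give the way in which the 3 experimental replicates of a list were joined. Per the submitters' processing notes, the tools were FastQC 0.12.1, Bowtie2 2.3.5.1, Picard, SAMtools 1.6, Genrich 0.6.2 and R 4.4.1 and the build was hg38. The deposited lists give positions, a score (the area of each peak, at least 200 in each list) and a −log10 p of at least 2.52 as deposited by the authors. They hold no read counts, so depth and its precision are unknown.

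Peak-covered bases were summed in each gene body and 10 kb on each side (RefSeq positions on GRCh38.p14) and scaled to an equal total covered length. limma 3.58.1 in R 4.3.3, with a trend, was fitted to log2(length + 500 bp) over 18 lists in 6 groups (12 residual degrees of freedom) for 16816 of 19974 protein-coding genes covered over 500 bp or more in 3 or more lists, with Benjamini-Hochberg adjustment over them and 11 contrasts. Peaks overlapping by 1 bp were merged over lists into regions. The method was tested on simulated data. Python 3.11.15 was used for the rest. All 10 members are named, with the regions at their starts, those gained or lost after treatment, and the 3 that differ most between control groups. Further regions were named after their values were seen. From the 5 other gene lists, up to 3 called genes of the largest change per comparison could be named, and from genes over 1 Mb away the 3 most correlated with the members' sum. The members and lists were chosen with earlier results of these data known. Same-numbered lists deviated together most in 3 comparisons: MDA-MB-231 day 1 against control, and day 10 against day 1 of both lines (correlations from 0.132 to 0.419). The correlations were 0.330, 0.133 and 0.0564 in MDA-MB-231 day 10 against control. In PC3 they ran from -0.0444 to 0.253 over day 1 and day 10 against control. The pairing is read from the values alone. Alternatives were other peak sets, scalings, windows, filters, pseudocounts and overlaps, a replicate block, and leaving out each list.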

Additional observations from a re-analysis of the deposited data

Results flagged for a closer look

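At day 10 the change from control differed between the lines for *FOSB*, by a log2 difference of -0.4021 (PC3 minus MDA-MB-231, limma adjusted p = 0.0434), and the 3 PC3 lists at day 10 lay below all PC3 control lists. The same test gave -0.4089 for *JUND* (limma adjusted p = 0.0495), again with 3 of 3 PC3 lists below all controls. Both were selected because the difference itself was called. Both differences lost their calls when other scalings were used, and in 10 and 14 of 18 fits with 1 list left out.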

How the results depend on the processing

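Of 33 called changes of single members, 15 kept direction and call among the 50000 highest-area peaks, 18 at a −log10 p of at least 5, 18 with no scaling, 19 with median-of-ratios scaling, 26 in the window of 2 kb, 32 without the filter and 33 with a pseudocount of 100 bp. The causes were not tested. With 1 list left out, 539 of 594 kept both and 0 reversed. Of the called changes, *FOS* in MDA-MB-231 at day 10 reversed in sign (0.10 among the highest-area peaks, 0.18 at the stricter threshold). So did *JUNB* in PC3 at day 10 (0.11, 0.20, and 0.035 with no scaling) and *BATF* between control groups in the window of 2 kb (-0.21). Some changes not called as designed were called with the opposite sign. They were *JUNB* between lines at day 10 (0.22, 0.59, and 0.25 with median-of-ratios scaling) and *BATF3* in PC3 at day 1 among the highest-area peaks (0.62). In MDA-MB-231 at day 1, 3 members were called, 1 among the highest-area peaks, 1 at the stricter threshold, 1 with no scaling, and 1 to 4 with 1 list left out. At day 10, 3 were called and 1 under each of these, with median-of-ratios scaling and in the window of 2 kb, and 1 to 3 with 1 list left out. In PC3, 0 were called at day 1 and 0 between times, and 1 each among the highest-area peaks and in the window of 2 kb. At day 10, 3 were called, 1 among the highest-area peaks, 1 with no scaling, 6 in the window of 2 kb and 2 to 4 with 1 list left out. With median-of-ratios scaling 3 were called there too, *FOSB*, *ATF3* and *BATF* in place of *FOSB*, *JUND* and *JUNB*. For the difference of changes, 0 were called at day 1 and 1 among the highest-area peaks, and 2 at day 10, 0 with either peak set or scaling, 1 in the window of 2 kb, 1 without the filter and 0 to 2 with 1 list left out. Gained regions in MDA-MB-231 at day 1 numbered 2, 1 where at least 50% had to be covered and 2 to 5 with 1 list left out. Lost regions numbered 2, 0 with either peak set, and 2 to 5. At day 10, gained regions numbered 2, 0 at 50% and 1 at the stricter threshold, and lost regions 0, 2 among the highest-area peaks and 0 to 3 with 1 list left out. In PC3 at day 1, 4 were gained, 2 at 50%, 0 among the highest-area peaks and 1 at the stricter threshold. At day 10, 5 were gained, 1 at 50%, 0 and 1 with these peak sets, and 0 lost, 3 at 50%, 1 at the stricter threshold and 0 to 1 with 1 list left out. Between control groups 5 were gained, 3 at the stricter threshold, and 7 lost, 7 to 12 with 1 list left out. With the replicate block, 9 of 9 called changes kept their calls and *FOSL1* in MDA-MB-231 at day 1 was added (-0.28, limma adjusted p = 0.016), which makes 4 members. The block changed no other member's call.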
